A study of Mus musculus with 12 samples.

Results

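The urokinase receptor Plaur and 4 genes of plasminogen activation (Plau, Plat, Serpine2 and Serpinb2) were followed across bulk RNA-seq of mice with dextran sulfate sodium (DSS) colitis, a chemical injury of the colonic epithelium. The 5 genes were taken by symbol from the 54109 gene identifiers of the count table, and all 5 were matched. Plaur had been picked because its difference between Gpr15l knockout (KO) and wild-type (WT) libraries was not the same in the study's tissues, so its KO values are given as a description without a test. The other 4 were listed for their place in the same system. The 12 libraries formed 4 groups of 3: full colon of WT mice, full colon of Gpr15l-/- mice, LPMC of WT mice and LPMC of Gpr15l-/- mice. LPMC commonly stands for mononuclear cells of the lamina propria, the layer under the gut epithelium. All mice, WT included, had acute DSS colitis, so no group is uninjured. Gpr15l encodes a secreted ligand of the receptor Gpr15 on T cells. The sources used here do not give the DSS dose and duration, the age and strain of the mice or the design of the deleted allele. No label ties a library to an individual mouse, and the p-values below therefore rest on variation among libraries that can include technical variation.

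Plasminogen is an inactive plasma protein that the serine proteases urokinase (Plau) and tissue-type plasminogen activator (Plat) cut into plasmin, which dissolves fibrin and degrades matrix. Plaur is a receptor held in the membrane by a lipid anchor that binds urokinase and so places plasmin formation at the cell surface. Serpine2 (protease nexin-1) and Serpinb2 (plasminogen activator inhibitor type 2) are serpins that inhibit urokinase. In injured gut the receptor is found on leukocytes and on epithelium at wound edges.

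Total counts ran from 45.4 to 140.7 M per library. The deleted gene (annotated as 2610528A11Rik) held 15639 to 80362 counts in WT libraries and 4 to 20 in KO libraries. Marker sums showed what the material held. Epithelial markers summed to 15074 to 29302 CPM (counts per 1 M of the library total, scaled by TMM) in colon libraries and still to 8846 to 12508 CPM in LPMC libraries. The T cell sum there was 39.1 to 163 CPM. Sums of different genes, not scaled by gene length, do not measure how much of each cell type was present. All 7 fibroblast markers and all 7 T cell markers were higher in LPMC than in colon by edgeR, and 6 of 8 epithelial markers were lower. Over all genes, 25.4% were called higher and 24.9% lower. Other leukocyte lists differed, with 5 of 6 mast cell markers called higher and 0 of 4 B cell markers called. The 8 neutrophil markers and the 10 monocyte and macrophage markers each had 1 called higher and 1 called lower. The LPMC libraries therefore carried RNA of epithelium and stroma beside that of leukocytes.

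Promoter sequences are shown for Plaur, Serpinb2 and Serpine2, the 3 of the 5 genes with a window in the RefSeq set used here. Each is the 250 bases before the RefSeq start on GRCm38.p6, written 5′ to 3′ on the gene's own strand. Plaur lies on the plus strand of chromosome 7 (gene 24462484 to 24475968), Serpinb2 on the plus strand of chromosome 1 (107511423 to 107535478) and Serpine2 on the minus strand of chromosome 1 (79794197 to 79861180). These gene limits are from GENCODE. The Serpine2 window lies inside them, because the RefSeq start used is downstream of the GENCODE one. Capitals mark each match to an AP-1 site (TGANTCA), a GC box (GGGCGG) or a TATA box (TATAAA), searched on both strands.
Plaur, chr7:24462233-24462482, plus strand: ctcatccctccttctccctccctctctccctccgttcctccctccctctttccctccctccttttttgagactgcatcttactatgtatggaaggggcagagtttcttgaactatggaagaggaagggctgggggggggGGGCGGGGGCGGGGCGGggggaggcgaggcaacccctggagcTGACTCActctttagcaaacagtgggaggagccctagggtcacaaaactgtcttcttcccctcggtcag
Serpinb2, chr1:107511173-107511422, plus strand: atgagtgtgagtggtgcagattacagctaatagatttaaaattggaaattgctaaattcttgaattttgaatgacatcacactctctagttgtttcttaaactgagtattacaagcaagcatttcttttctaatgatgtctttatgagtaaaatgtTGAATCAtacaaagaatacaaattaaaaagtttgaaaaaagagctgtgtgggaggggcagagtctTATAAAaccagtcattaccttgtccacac
Serpine2, chr1:79858666-79858915, minus strand: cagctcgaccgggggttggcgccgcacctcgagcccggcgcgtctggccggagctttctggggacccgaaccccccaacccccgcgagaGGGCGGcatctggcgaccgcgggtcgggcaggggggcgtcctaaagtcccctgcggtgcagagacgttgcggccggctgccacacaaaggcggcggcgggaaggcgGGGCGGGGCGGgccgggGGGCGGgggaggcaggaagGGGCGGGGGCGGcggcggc
The Plaur window held 1 AP-1 match (TGACTCA) whose last base was 63 bases from the start, and 3 GC box matches, 2 of which share a base. The Serpinb2 window held 1 AP-1 match (TGAATCA, 88 bases from the start) and 1 TATA box (24 bases from the start). RefSeq lists a further start for Serpinb2, and its window from 107511260 to 107511509 contains the same matches. The Serpine2 window held 6 GC box matches and no match to the AP-1 or TATA letters. Of 32851 RefSeq windows of this length, 6.75% hold the AP-1 letters, 32.7% the GC box and 12.4% the TATA box. A search for a kappaB site, which 7.25% of windows hold, found none in these 3 windows. Plau (chromosome 14, 20836660 to 20843385, plus strand) and Plat (chromosome 8, 22757727 to 22782844, plus strand) had no window in that set. Plau lies 16.3 Mb from the deleted gene on the same chromosome.

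Plaur, the receptor, was lowest in colon KO and highest in LPMC KO. Colon WT replicates 1, 2 and 3 held 85.6, 140.5 and 60.8 CPM, and colon KO replicates held 45.9, 40.0 and 32.6 CPM. Every colon KO library was thus below every colon WT library. LPMC WT replicates held 142, 125 and 156 CPM, and LPMC KO replicates 136, 226 and 191 CPM, so the LPMC groups overlapped. The group means rose in the order colon KO (39.5 ± 6.65 CPM, SD, n = 3), colon WT (95.6 ± 40.7 CPM), LPMC WT (140.9 ± 15.7 CPM) and LPMC KO (185 ± 45.2 CPM). Along this order colon WT and LPMC WT overlapped through colon WT replicate 2, and the LPMC groups overlapped too. In bulk samples fewer cells of a type and less RNA per cell cannot be told apart.

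The log2 fold change of Plaur from WT to KO was -1.29 (SE 0.32) in colon and 0.38 (SE 0.20) in LPMC, and the LPMC change exceeded the colon change by 1.66 (SE 0.40) on the log2 scale. These are the values the gene was chosen for, and they carry no test here. Libraries did not overlap between KO and WT colon for 14.3% of all genes tested (6.53% lower and 7.78% higher in KO), and in LPMC for 7.42% (3.74% lower and 3.68% higher). Without colon WT replicate 2, the highest of that group, the colon value was -0.90, and without any 1 of the other colon libraries it lay between -1.51 and -1.17.

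**Figure D1:**
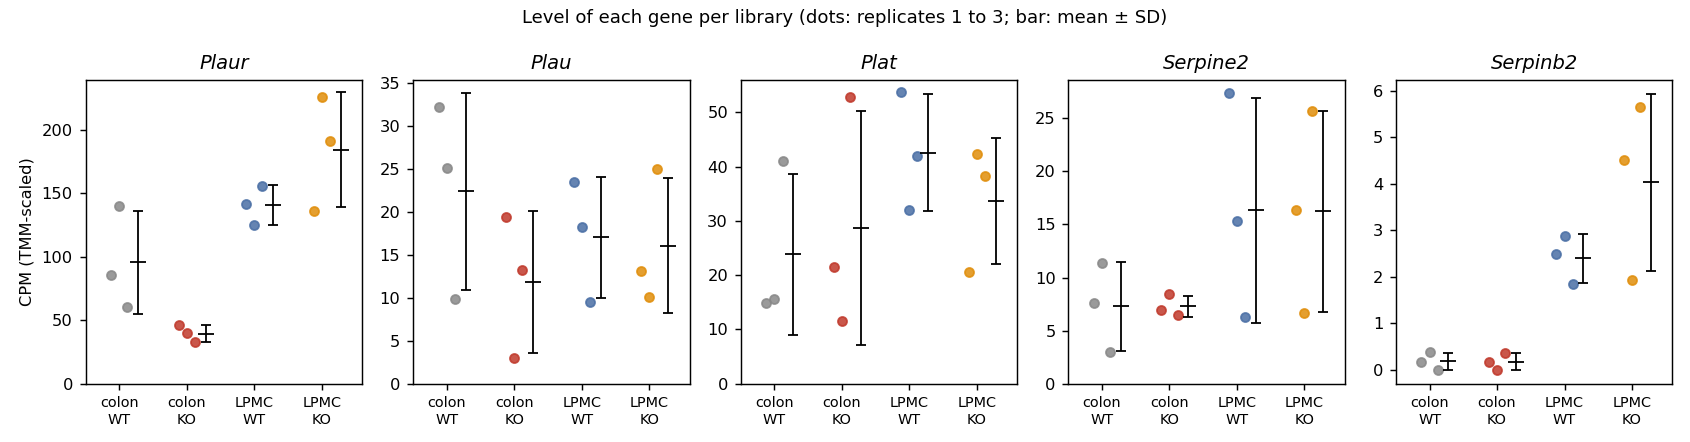
Level of the 5 genes in each library, in CPM scaled by TMM, with linear axes. Dots are replicates 1 to 3 of a group from left to right and bars give mean ± SD (n = 3). Plaur in colon KO lies at 32.6 to 45.9 CPM, below all colon WT libraries, whereas the groups of each tissue overlap for the other 4 genes.

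Marker sums of neutrophils and T cells did not overlap between the colon groups, and those of the other cell types did. For KO against WT, 0 single markers were called in any list. The 8 neutrophil markers summed to 541, 775 and 642 CPM in colon WT and to 452, 260 and 377 CPM in colon KO, with 6 of 8 negative. That separation rested on Ly6g, which made up most of the sum at 426, 569 and 583 CPM in colon WT and 338, 247 and 247 CPM in colon KO, and which was at 6.66 CPM or less in LPMC. Without Ly6g, a choice made after seeing the data, the other 7 markers summed to 115, 205 and 59.1 CPM in colon WT and 114.5, 13.1 and 129 CPM in colon KO, and the groups overlapped. All 7 T cell markers were negative, with sums of 36.7, 10.4 and 9.9998 CPM in colon WT and 7.33, 3.83 and 7.91 CPM in colon KO that did not overlap. All 4 B cell markers were negative too, with overlapping sums. These were 567, 2.28 and 10.2 CPM in colon WT and 11.8, 1.42 and 3.56 CPM in colon KO. Monocyte and macrophage markers ranged from 190 to 433 CPM in colon WT and from 60.8 to 372 CPM in colon KO, with 7 of 10 negative. Smooth muscle and fibroblast markers were each 7 of 7 positive, with overlapping sums of 228 to 1185 and 699 to 1967.5 CPM for smooth muscle and of 263 to 505 and 222 to 1026 CPM for fibroblasts. Epithelial sums were 21653 to 23290.0 CPM in colon WT and 15074 to 29302 CPM in colon KO. The part of these cell types in the lower Plaur level was not tested. In LPMC WT, Plaur and the neutrophil sum ran in the same order over the libraries (156, 142 and 125 CPM of Plaur with sums of 119, 114 and 59.7 CPM). In LPMC KO they ran in opposite order (226, 191 and 136 CPM of Plaur with sums of 73.4, 390.3 and 575 CPM). For KO against WT in LPMC, 7 of 8 neutrophil and 9 of 10 monocyte and macrophage markers were positive. All 7 T cell and all 4 B cell markers were positive too. Negative were 7 of 8 epithelial, 6 of 7 fibroblast, 8 of 8 endothelial and 7 of 7 smooth muscle markers. The part of these cell types in the LPMC level of Plaur was not tested. The neutrophil marker Stfa2l1 was at 0 in at least 1 library, and no monocyte or macrophage marker was.

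Plau, the gene of urokinase, varied widely within every group. Colon WT replicates held 32.2, 25.1 and 9.84 CPM and colon KO replicates 19.3, 2.97 and 13.3 CPM. LPMC WT replicates held 23.4, 18.2 and 9.48 CPM and LPMC KO replicates 13.1, 10.1 and 24.9 CPM. The groups overlapped in both tissues, and colon KO replicate 2 was the lowest of all libraries. Its log2 fold change from WT to KO was -0.94 (SE 0.69) in colon and -0.08 (SE 0.46) in LPMC. Leaving out colon KO replicate 2 gave a colon value of -0.48, leaving out the first colon WT library gave -0.57, and leaving out the first colon KO library gave -1.46. Colon KO replicate 2 also had the lowest monocyte and macrophage sum of all libraries (60.8 CPM), whose part was not tested.

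Plat, the tissue-type activator, differed more between replicates than between genotypes. Colon WT replicates held 14.8, 15.7 and 41.0 CPM and colon KO replicates 21.6, 11.5 and 52.9 CPM. One library in each colon group stood well above its partners. LPMC WT replicates held 53.7, 32.1 and 41.9 CPM and LPMC KO replicates 20.6, 42.3 and 38.2 CPM. The log2 fold change from WT to KO was 0.26 (SE 0.61) in colon, which became -0.52 without colon KO replicate 3, and -0.34 (SE 0.31) in LPMC.

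The inhibitor Serpine2 had the same mean in both colon groups. Colon WT replicates held 7.58, 11.3 and 2.95 CPM (mean 7.29 ± 4.198, SD, n = 3) and colon KO replicates 6.91, 8.43 and 6.52 CPM (mean 7.29 ± 1.01). LPMC WT replicates held 27.4, 15.3 and 6.32 CPM and LPMC KO replicates 16.3, 6.71 and 25.7 CPM. In each LPMC group 1 library lay at the level of colon while the rest were above every colon library. Log2 fold changes from WT to KO were -0.02 (SE 0.47) in colon and -0.01 (SE 0.66) in LPMC.

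Serpinb2, the other serpin, was barely detected in colon. Colon WT replicates held 14, 16 and 0 counts and colon KO replicates 16, 0 and 52 counts. LPMC WT replicates held 260, 285 and 94 counts (2.48, 2.87 and 1.83 CPM) and LPMC KO replicates 621, 158 and 429 counts (4.52, 1.92 and 5.64 CPM). Every LPMC library was above every colon library, and the KO and WT groups overlapped within each tissue. Its log2 fold change from WT to KO was 0.05 (SE 1.35) in colon, where the counts are too few to place it, and 0.75 (SE 0.44) in LPMC. Serpinb10 overlaps Serpinb2 on the same strand but held at most 30 counts in a library.

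Of the 4 genes other than Plaur, 0 passed edgeR's quasi-likelihood test for KO against WT, with adjusted p from 0.709 to 0.993 in colon, from 0.998 to 0.999 in LPMC and from 0.921 to 0.9999 for the difference between tissues. None of the 4 had an unadjusted p under 0.05 in any of these comparisons, and 0 were called by DESeq2 or by limma voom. Calls were rare in general, at 0.00518% of 19303 genes tested in colon, 0.0103% of 19426 in LPMC (0.00515% in each direction) and 0.0% of 20989 for the difference. A miss here does not show that these genes were alike between genotypes.

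**Figure D2:**
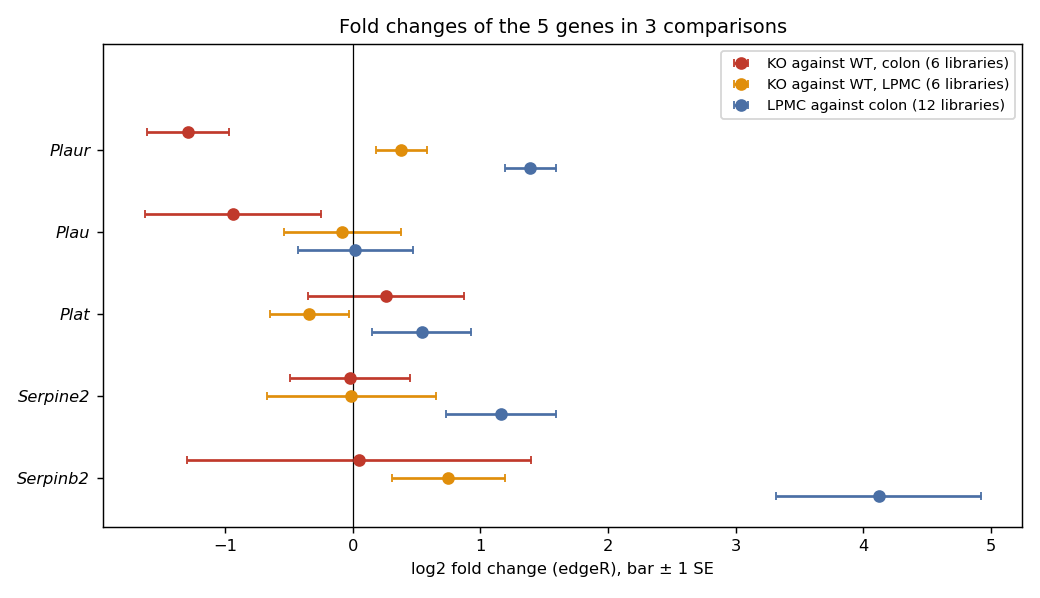
Log2 fold changes (horizontal axis) with bars of 1 SE for KO against WT in colon, KO against WT in LPMC, and LPMC against colon averaged over genotypes. Plaur lies at -1.29 in colon and at 0.38 in LPMC for KO against WT, and Serpinb2 at 4.12 for LPMC against colon.

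The comparison of LPMC with colon, averaged over genotypes, asked how the system differs between the isolated cells and the whole tissue. By design its estimate is separate from the contrast Plaur was chosen on, but both tests use the spread of the same 12 libraries. The p-value of Plaur is therefore not fully independent of its choice. The receptor and both serpins were higher in LPMC, and the 2 activators did not pass. Plaur was 2.62-fold higher (log2 fold change 1.39, SE 0.20, adjusted p = 0.000261 by edgeR), with a colon range of 32.6 to 140.5 CPM and an LPMC range of 125 to 226 CPM. Serpinb2 was higher by 4.12 (SE 0.80) on the log2 scale, with an adjusted p of 0.00161 by edgeR. Its colon libraries held only 0 to 52 counts, so the size of this difference is uncertain (5.11 with limma voom). Serpine2 was higher by 1.16 (SE 0.43), with an adjusted p of 0.0419 by edgeR. Plat was at 0.54 (SE 0.39, adjusted p = 0.279 by edgeR) and Plau at 0.02 (SE 0.45, adjusted p = 0.974 by edgeR). So 3 of 5 genes passed as higher, where 25.4% of all genes did (50.3% were called in either direction). Libraries of the tissues did not overlap for Serpinb2 alone of the 5, as for 14.5% of all genes in that direction and 27.7% in either.

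The Plaur difference was unequal between genotypes, as its choice implies. It was 0.56 (SE 0.28, adjusted p = 0.143 by edgeR) between the WT libraries and 2.22 (SE 0.29) between the KO libraries. The Serpine2 call was lost in 9 of the 12 fits that each left out 1 library, with adjusted p of up to 0.113. It held in the 3 fits that left out colon WT replicate 2, the third LPMC WT library or the second LPMC KO library. The Plat difference rose to 0.93 and passed (adjusted p = 0.043 by edgeR) without colon KO replicate 3.

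Fibroblast markers differed between tissues along with Serpine2. They summed to 222 to 1026 CPM in colon and to 5316, 3254.5 and 886 CPM in LPMC WT and 3806, 1021 and 3852.5 CPM in LPMC KO. The low libraries, LPMC WT replicate 3 and LPMC KO replicate 2, were also those with the least Serpine2 (6.32 and 6.71 CPM). All 7 fibroblast markers were called higher in LPMC, beside 25.4% of all genes, and none was at 0. Endothelial markers summed to 38.2 to 103 CPM in colon and 151 to 406 CPM in LPMC. The part of either cell type in the tissue differences was not tested.

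**Figure D3:**
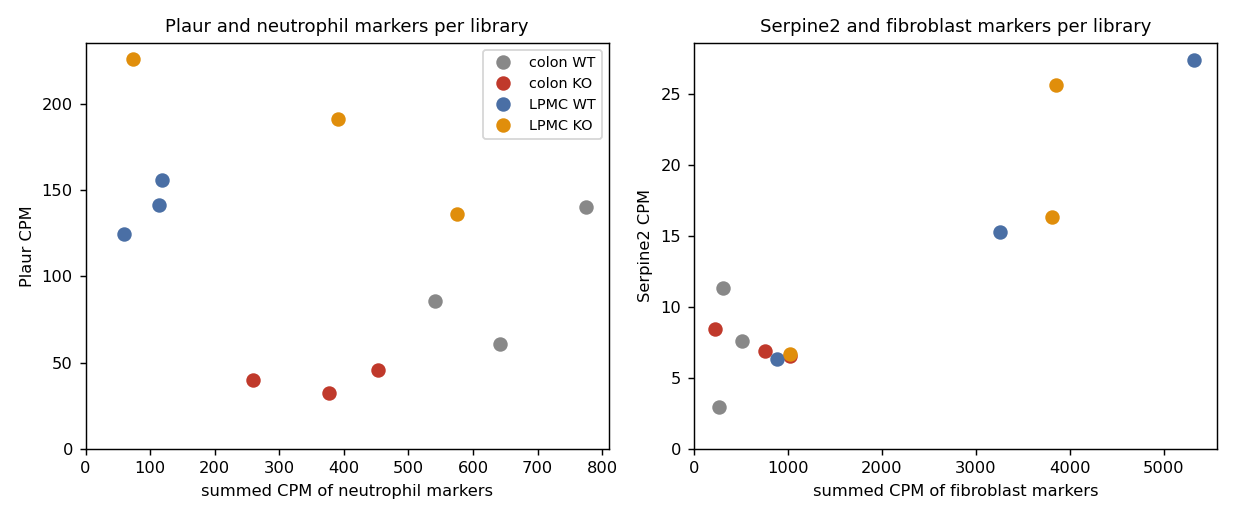
Left, Plaur CPM against the summed CPM of 8 neutrophil markers, and right, Serpine2 CPM against the summed CPM of 7 fibroblast markers, 1 dot per library coloured by group. Colon KO libraries lie lowest for Plaur, Ly6g makes up most of the neutrophil sum in colon, and the 4 libraries with a fibroblast sum of 3254.5 CPM or more have 15.3 CPM of Serpine2 or more.

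Per kb of merged exon length the receptor had the highest mean of the 5. In colon Plaur averaged 25.8 ± 15.4 CPM per kb (SD, n = 6), Plau 7.23 ± 4.49, Plat 4.205 ± 2.69, Serpine2 0.879 ± 0.330 and Serpinb2 0.0753 ± 0.0686 CPM per kb. In LPMC the means were 62.2 ± 14.7 for Plaur, 6.99 ± 2.82 for Plau, 6.11 ± 1.78 for Plat, 1.97 ± 1.08 for Serpine2 and 1.37 ± 0.655 CPM per kb for Serpinb2. The order was thus the same in both tissues, though the intervals of 1 SD overlapped for Plaur and Plau in colon, for Plau and Plat in both tissues and for Serpine2 and Serpinb2 in LPMC.

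Other genes of the system were taken from 5 lists holding 48 genes, of which 44 passed the filter on low counts for the comparison of LPMC with colon. There 12 were called higher and 12 lower, against 25.4% and 24.9% of all genes, with a median log2 fold change of 0.56 against 0.01 over all genes. Plasminogen receptors were lower throughout. All 4 that were tested passed, with no overlap between the libraries of the tissues: S100a10 (-2.08, SE 0.17) and its partner Anxa2 (-1.61, SE 0.14), which bind plasminogen as a complex, the glycolytic enzyme Eno1 (-1.45, SE 0.14), which also does so at the cell surface, and the receptor Plgrkt (-1.12, SE 0.14). Libraries did not overlap in that direction for 13.2% of all genes. The 6 of 8 epithelial markers called lower moved the same way, and their part was not tested. Plg, the gene of plasminogen itself, was not tested, with 0.0526 CPM or less in 11 libraries.

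Among inhibitors, 2 of 8 tested were higher and 2 lower, beside 25.4% and 24.9% of all genes. The membrane-bound Kunitz inhibitors Spint1 (-0.90, SE 0.14) and Spint2 (-0.76, SE 0.23) were lower. Cpb2, a carboxypeptidase that protects fibrin from plasmin, was called higher, but it was at 0 in all colon WT libraries and at 0.429 CPM or less elsewhere, so no fold is given.

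Of the proteases that activate pro-urokinase or belong to the kallikrein system, 1 of 6 tested was higher and 3 were lower. The shares over all genes were 25.4% higher and 24.9% lower. Hpn (hepsin) was higher (1.63, SE 0.38). St14 (matriptase), an epithelial membrane protease, was lower (-1.21, SE 0.14), as were Habp2 (-2.85, SE 0.41) and the lysosomal protease Ctsl (-0.45, SE 0.15). Habp2 was near the floor, at 0.783 CPM or less in colon libraries and 34 counts or fewer in LPMC libraries, so its fold is uncertain. The Ctsl call was lost without colon WT replicate 3 (-0.41), without LPMC WT replicate 2 (-0.44) and without LPMC KO replicate 2 (-0.39).

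Among 14 partners and clearance receptors of Plaur, 4 were higher and 3 lower, beside 25.4% and 24.9% of all genes. The higher ones were the collagen receptor Mrc2 (2.69, SE 0.55), which associates with Plaur, its matrix ligand vitronectin, Vtn (2.55, SE 0.69), the formyl peptide receptor Fpr1 (2.30, SE 0.66) and the integrin chain Itgb3 (1.48, SE 0.45). Colon libraries held 4 to 275 counts of Vtn and 16 to 259 of Fpr1, so these folds are uncertain. The Vtn call was lost between the KO libraries alone (1.04, adjusted p = 0.426 by edgeR). The integrin chain Itgav (-1.09, SE 0.15) and the growth factor receptor Egfr (-0.54, SE 0.13) were lower, and so was the integrin chain Itga3, by 2-fold. The leukocyte integrin chains Itgb2 (1.33, SE 0.52, adjusted p = 0.0531) and Itgam (0.72, SE 0.35, adjusted p = 0.106) did not pass edgeR's test. DESeq2 and limma voom called Itgb2 (adjusted p = 0.0173 and 0.0339). Lrp1, which clears urokinase bound to its inhibitor, was at 0.37 (SE 0.28, adjusted p = 0.286 by edgeR).

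Of the plasmin substrates and clotting genes, 5 of 12 tested were higher and 0 lower, beside 25.4% and 24.9% of all genes. F3, or tissue factor, which starts clotting, was higher by 2.53 (SE 0.29) with no overlap, at 28.9 to 80.1 CPM in colon and 155 to 395 CPM in LPMC. Its highest level was in LPMC KO replicate 2, which was also the highest library for Plaur. The anticoagulant receptor Thbd (2.63, SE 0.44), the growth factor Tgfb1 (1.68, SE 0.38), which plasmin can release from its latent form, the protein C receptor Procr (1.41, SE 0.43) and the tissue factor inhibitor Tfpi (1.36, SE 0.31) were the others.

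**Figure D4:**
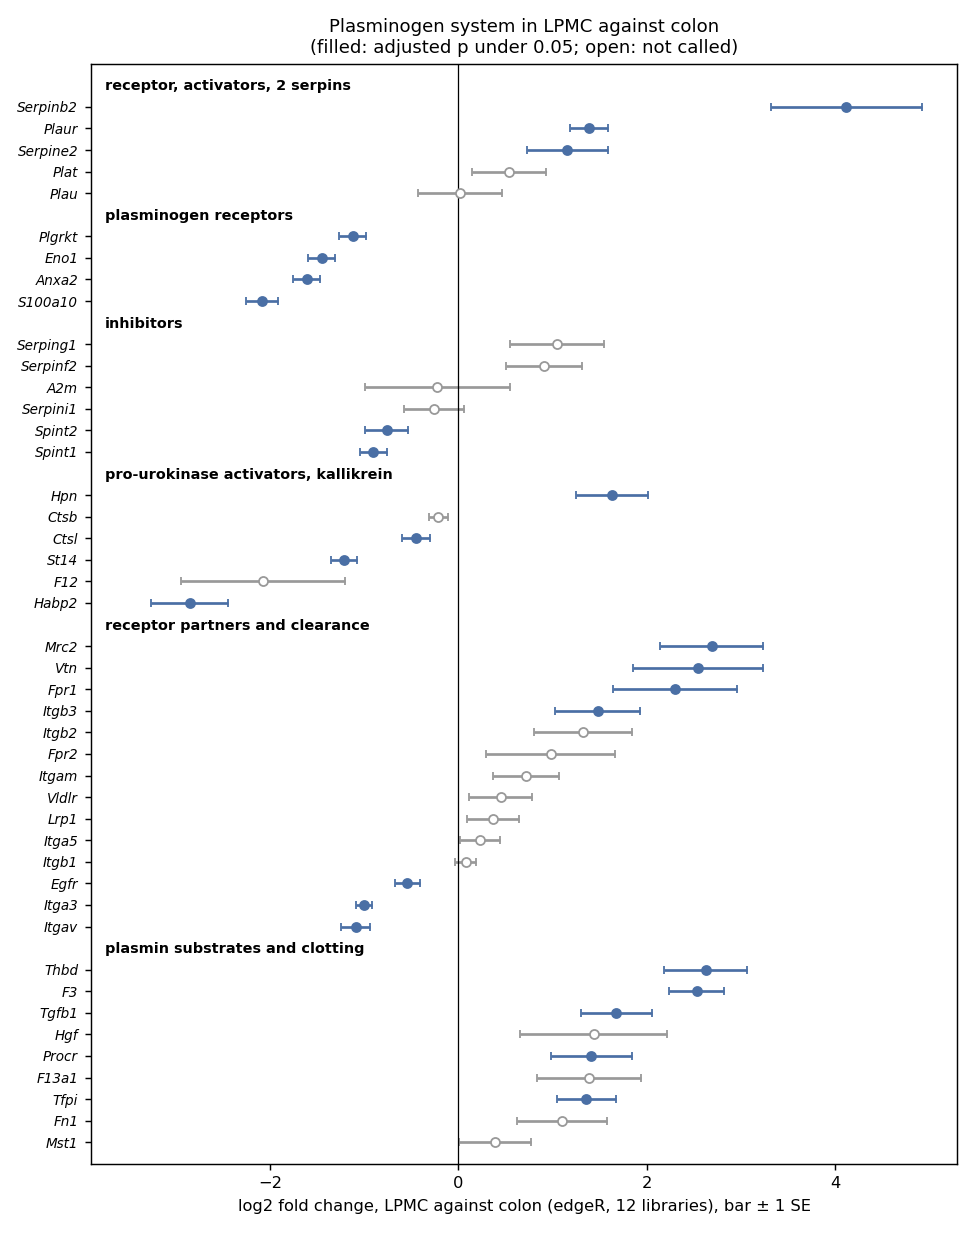
Log2 fold change of LPMC against colon (horizontal axis, bars of 1 SE, 12 libraries) for the 5 genes and the lists of the plasminogen system, with calls filled and other genes open. The plasminogen receptors all lie left of 0 and most substrate and clotting genes right of it. Cpb2 and the fibrinogen chains Fga, Fgb and Fgg are left out because colon WT libraries held almost none of their reads, and not every other list gene is drawn.

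For KO against WT, 0 of 40 list genes tested in colon, 0 of 41 in LPMC and 0 of 44 for the difference between tissues passed edgeR's test, and DESeq2 and limma voom called 0 as well. At an unadjusted p under 0.05 there were 4 (10%), 1 (2.44%) and 5 (11.4%), beside 7.79%, 2.64% and 4.69% of all genes. The 5 for the difference between tissues were Cpb2, Fga, Fgg, Habp2 and Vtn, so this share rests on sparse reads. In colon KO replicates 1, 2 and 3, Fga held 771, 4 and 2 counts, Fgg 629, 5 and 0, and Vtn 275, 8 and 90. Cpb2 held 36, 4 and 0 counts there, and Habp2 held 34 counts or fewer in every LPMC library. The lowest p-values in colon belonged to the lipoprotein receptor Vldlr (1.59, SE 0.53), fibronectin, Fn1 (1.20, SE 0.40) and the integrin chain Itga5 (0.66, SE 0.26) on the positive side, and to Procr (-1.23, SE 0.50), Plgrkt (-0.56, SE 0.24) and Anxa2 (-0.59, SE 0.27) on the negative side. Their adjusted p was 0.632 to 0.636. Vldlr held 35.2 CPM in colon KO replicate 2 against 9.69 and 12.4 CPM in the other colon KO libraries, and its value was 0.79 without that library. In LPMC they belonged to Fga (1.12, SE 0.57), the clotting transglutaminase F13a1 (1.04, SE 0.55) and Itgam (0.68, SE 0.44), and to S100a10 (-0.31, SE 0.10), Anxa2 (-0.19, SE 0.10) and St14 (-0.14, SE 0.12), with an adjusted p of 0.998. For the difference between tissues they were Plgrkt (0.57, SE 0.27), Tgfb1 (1.27, SE 0.75) and Anxa2 (0.39, SE 0.28) on the positive side. On the negative side they were Cpb2, Fga and Fgg, for which colon WT libraries were at 0 and no fold is given.

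Of the 41 list genes tested in LPMC, 2 (4.88%) were lower in every KO library than in any WT library, near the 3.74% of all genes, and neither passed. S100a10 ran from 200 to 209 CPM in LPMC WT and from 157 to 184 CPM in LPMC KO, and Anxa2 from 709 to 833 CPM and from 659 to 697 CPM. Epithelial markers were 7 of 8 negative in the same comparison, with sums of 10744 to 12508 CPM in LPMC WT and 8846 to 12010.0 CPM in LPMC KO, and their part was not tested.

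The genes whose pattern was most like that of Plaur were ranked by Pearson correlation of log2 CPM over the 12 libraries after centring each tissue on its mean, among 9853 named genes whose log2 CPM averaged 3 or more. The highest were the tight junction claudin Cldn4 (0.911), the GTPase Nras (0.872), the transcription factor Tfe3 (0.866), the ubiquitin ligase adaptor Spop (0.863), the ERK phosphatase Dusp6 (0.849) and the ribosomal protein gene Rps3a1 (0.843). They are the top of a long ranking over few libraries, and all genes share the depth and make-up of those libraries, so the values are descriptive. Cldn4 averaged 153 ± 85.6 CPM (SD, n = 3) in colon WT, 56.2 ± 12.5 CPM in colon KO, 326 ± 68.9 CPM in LPMC WT and 319 ± 127 CPM in LPMC KO. Within colon the value for Cldn4 was 0.98 (n = 6) and within LPMC 0.542 (n = 6). For the others these values were 0.90 and 0.717 (Nras), 0.917 and 0.865 (Tfe3) and 0.865 and 0.862 (Spop). They were 0.91 and 0.526 for Dusp6, and 0.914 and 0.212 for Rps3a1. The ranking includes the KO differences that Plaur was picked for, so it gives no separate support to them. Over the 12 libraries Plau had 0.447, Serpinb2 0.233, Serpine2 0.061 and Plat -0.275, so none of them followed Plaur closely.

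**Figure D5:**
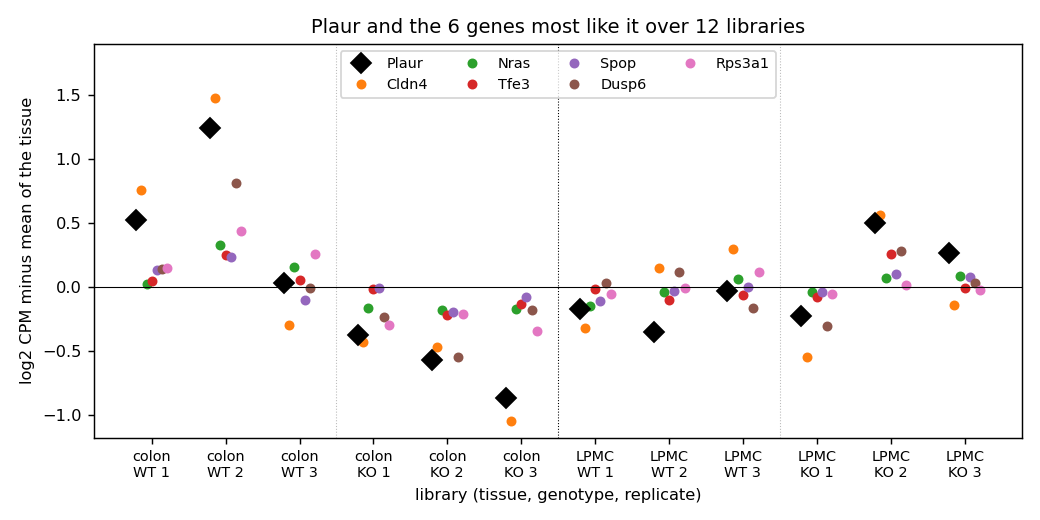
Log2 CPM minus the mean of the tissue (vertical axis) for Plaur, as black diamonds, and the 6 genes most like it, in each of the 12 libraries. Plaur and Cldn4 are both highest in colon WT replicate 2 and lowest in colon KO replicate 3 among the colon libraries.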

How the data were processed

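RNA of 12 libraries was measured, 3 in each of 4 groups of tissue and genotype taken from the sample titles. Per the labels' protocols the libraries came from a stranded TruSeq mRNA kit on an Illumina HiSeq instrument, and per the submitters' processing notes STAR and GRCm38 (mm10) were used. The sources used here do not give the STAR version, counter, annotation, strand setting or filters. The authors deposited whole-number read counts per Ensembl gene, not normalized. Of 54109 identifiers, 54042 matched GENCODE M21 and took its symbols, and 67 did not. Low counts were mostly even (66.6 to 76.6% of counts from 1 to 20), as when both mates of a pair are counted, which makes the sampling error greater than for independent reads. Replicates of a group were not duplicates (a chi-square averaging 75.5 to 602 per gene over the pairs of libraries) and were kept separate.

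The deposited counts were tested with edgeR 4.0.16 in R 4.3.3 (TMM, filterByExpr with a minimum count of 10, robust quasi-likelihood F-test, Benjamini-Hochberg adjustment over all genes tested, called under 0.05). KO was compared with WT on the 6 libraries of a tissue, and the tissues and the difference of KO effects on all 12 with a mean per group. The SE is the log2 fold change divided by the square root of F. DESeq2 1.42.0 and limma 3.58.1 (voom) were alternatives, and the steps were tested on simulated counts. Levels are CPM with TMM factors, and log2 CPM used a prior count of 2. Promoter windows came from RefSeq. The named genes were the 5 genes, a set of well-known list genes, those of lowest p per list or direction, and the 6 most like Plaur. The members and lists were chosen with earlier results of these data known. Serpinb10, Fgb and Pzp, and Procr for LPMC against colon, were named after their values were seen. The values of 1 list gene are not reported here, though the counts over the lists include it.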

Additional observations from a re-analysis of the deposited data

How the results depend on the processing

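For KO against WT, DESeq2 called 32 genes in colon, 34 in LPMC and 3 for the difference between tissues, against 1, 2 and 0 by both edgeR and limma voom. A fit of all 12 libraries called 2 in colon, and no filter on low counts called 4 in LPMC. Leaving out 1 library gave 0 to 1 in colon and 1 to 2 in LPMC. LPMC against colon called 10549 genes, 7421 between WT libraries alone and 5893 between KO libraries alone. With the replicate number as a block, 0 genes were called in either tissue. Deviations of same-numbered libraries correlated at -0.23 to 0.24 between genotypes. Between tissues they correlated at 0.064 to 0.303, all 6 pairs being positive, and those of other-numbered libraries at -0.257 to 0.191. The same number gave the highest value for each colon library except colon KO replicate 1 (0.064 against 0.191). Whether the tissues share mice is not in the labels, and the main tests treated all libraries as unpaired. With the block, LPMC against colon gave 1.42 for Plaur (adjusted p = 0.000655 by edgeR) and 4.12 for Serpinb2 (adjusted p = 0.00486 by edgeR).

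Plaur ran from -1.51 to -0.90 in colon over the fits that left out 1 library, and its LPMC to colon difference was 0.56 between WT libraries. Serpine2 in LPMC against colon kept its direction (0.87 to 1.40 without 1 library), but its call was lost with no filter (1.16), with the replicate block (1.18), between WT libraries (1.17) and between KO libraries (1.16), the last 2 resting on fewer libraries. Plau in that comparison was -0.39 between WT libraries and -0.23 to 0.27 without 1 library, and Plat was 0.32 to 0.93. Several KO against WT values near 0 changed sign, none of them past the threshold. Serpine2 in colon was 0.20 with voom, 0.0042 with no filter, 0.17 with the block, 0.0014 in the fit of all 12 libraries and -0.37 to 0.45 without 1 library. Serpine2 in LPMC was -0.51 to 0.59, and its difference between tissues was 0.12 with the block and -0.51 to 0.58 without 1 library. Serpinb2 in colon was -0.04 with DESeq2 and -0.93 to 1.02 without 1 library, and its difference between tissues -0.31 to 1.61. Plau in LPMC was -0.56 to 0.22, Plat in colon -0.52 to 0.91, and the Plat difference between tissues -1.25 to 0.18. Serpinb2 in colon rests on 0 to 52 counts per library, which limits its comparison there.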

Other observations

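Colon KO replicate 1 alone held reads of several plasma protein genes that the liver is known to make. Plg was at 1.79 CPM there, against 0.0526 CPM or less in the other 11 libraries. The fibrinogen chains Fga, Fgb and Fgg were at 8.30, 9.22 and 6.77 CPM, against at most 0.413, 0.342 and 0.133 CPM elsewhere. The protease inhibitor Pzp was at 2.81 CPM, against at most 0.0658 CPM. The other colon KO libraries did not share this, and no result on the 5 genes of plasminogen activation rests on these genes. Vtn was also highest of the colon libraries there, at 2.96 CPM against 0.0573 to 0.602 CPM. The LPMC to colon difference of Vtn, 2.55 in log2 units, was 1.04 (adjusted p = 0.426 by edgeR) between the KO libraries alone.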
